A study of Mus musculus with 6 samples.

Results

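Snhg12, a spliced RNA that carries small nucleolar RNAs (snoRNAs) in its introns, fell to 22.3% of the control mean in mouse liver tumour cells with a hairpin against Sf3b3. Snhg12 passed the test across all genes (limma adjusted p = 0.043), but not with limma voom on recovered reads (0.055). Nor did it pass in fits without certain single libraries (limma adjusted p = 0.12 to 0.19). Without the highest control library its log2 fold change was -1.47, against -1.98 with all libraries. Gas5, Snhg5 and Snhg8, of the same kind, and the nuclear RNAs Malat1 and Neat1 had lower means in the knockdown as well, but did not pass the test across all genes. These RNAs were chosen by name from a list of 8, made up of 6 snoRNA host genes (Gas5, Snhg1, Snhg3, Snhg5, Snhg8 and Snhg12) and 2 nuclear RNAs. Of the 8, 6 were listed among the 11866 genes of the deposited table, and all 6 were among the 10770 genes tested. Snhg1 and Snhg3 were not analysed here.

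The knockdown group (KD, 3 libraries) held HCC3-4 cells stably carrying shSf3b3, and the control group (PLKO, 3 libraries) held HCC3-4 cells stably carrying the negative control pLKO.1-TRC. HCC3-4 is a liver tumour line from MYC transgenic mice, so both groups share that transgene background and the culture in DMEM with serum. RNA was captured by poly(A) before sequencing. The labels name 1 hairpin and do not say whether the cells were a clone or a pool, or whether cultures were separate. The spread behind each p-value is therefore that of libraries and may be technical. The series concerns SF3B3, a subunit of the SF3b complex that binds the branch point of introns during splicing, and its role in splicing of the bile acid receptor FXR.

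A snoRNA host gene is transcribed and spliced like a coding gene, but the useful product is often the intron: snoRNAs cut out of it guide the methylation or pseudouridylation of ribosomal RNA in the nucleolus. The spliced exons of Gas5 and many of its kin are translated only briefly and are known to be removed in the cytoplasm by nonsense-mediated decay, so their level reflects both synthesis and decay. Malat1 and Neat1 stay in the nucleus, Malat1 in nuclear speckles and Neat1 as the scaffold of paraspeckles. The mature 3′ end of Malat1 is a triple helix in place of a poly(A) tail, and Neat1 is made as a short polyadenylated form and a long form. Levels of Malat1 and Neat1 given here are those of RNA captured by poly(A), and the share captured was not tested.

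In the GENCODE M21 annotation (GRCm38), Gas5 lies on the plus strand at chr1:161034422-161038539, with 25 transcripts of 2 to 12 exons, and holds 9 snoRNA loci. Snhg12 (chr4:132308623-132311024, plus strand) holds 4, Snhg5 (chr9:88521050-88522929, minus strand) holds 2, and Snhg8 (chr3:123507552-123508404, minus strand) holds 1. Malat1 (chr19:5795690-5802672) and Neat1 (chr19:5824708-5845478) lie on the minus strand of the same chromosome, 22036 bases apart, and hold none. The snoRNA of each host shown here is the part that the host is known for. They are given from the GENCODE transcripts, 5′ to 3′, with the C box letters TGATGA and the D box letters CTGA in capitals for the box C/D snoRNAs, and the 3′ ACA box in capitals for the H/ACA snoRNA Snora24.
Snord47 in Gas5: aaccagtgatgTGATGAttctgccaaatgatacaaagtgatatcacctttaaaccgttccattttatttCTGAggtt
Snord50a in Snhg5: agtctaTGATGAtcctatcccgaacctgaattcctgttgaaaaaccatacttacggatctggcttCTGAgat
Snord99 in Snhg12: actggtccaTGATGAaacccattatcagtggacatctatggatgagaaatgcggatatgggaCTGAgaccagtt
Snora24 in Snhg8: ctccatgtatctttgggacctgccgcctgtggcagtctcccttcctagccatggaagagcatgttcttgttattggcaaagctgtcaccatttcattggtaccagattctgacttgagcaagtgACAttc
All 18 snoRNA annotations of these 4 hosts lie inside an exon of at least 1 annotated transcript that keeps the intron. The authors' gene lengths, recovered from the values, equal the union of all such exons: 3760 bases for Gas5, 1730 for Snhg5, 853 for Snhg8 and 2402 for Snhg12. Levels per length of the hosts are therefore levels over almost the whole locus (91.3% of it for Gas5, 92% for Snhg5 and 100% for the others), and spliced and unspliced RNA cannot be told apart.

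The starts of the 4 hosts resemble each other, which the choice by name did not use. The stretches from 45 bases before to 20 bases from the start on are given from the RefSeq promoter table (GRCm38.p6), 5′ to 3′, because the hosts share features there that Malat1 lacks. Capitals mark the letters TATA wholly between 40 and 20 bases before the start, and any run of at least 5 pyrimidines (C or T) that reaches within 10 bases of it. A pyrimidine tract at the very start is known from RNAs of the translation machinery.
Snhg12, chr4:132308633-132308697, plus strand: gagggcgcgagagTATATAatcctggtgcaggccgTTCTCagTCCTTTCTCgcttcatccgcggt
Gas5, chr1:161035121-161035185, plus strand: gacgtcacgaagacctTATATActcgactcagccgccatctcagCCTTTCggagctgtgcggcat
Snhg5, chr9:88522878-88522942, minus strand: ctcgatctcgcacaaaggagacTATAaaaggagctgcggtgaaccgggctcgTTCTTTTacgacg
Snhg8, chr3:123508317-123508381, minus strand: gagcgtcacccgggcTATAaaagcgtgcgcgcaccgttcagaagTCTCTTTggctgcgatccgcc
Malat1, chr19:5802653-5802717, minus strand: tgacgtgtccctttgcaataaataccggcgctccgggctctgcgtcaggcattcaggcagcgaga
TATA, whose letters read alike on both strands, stood in this window in all 4 listed hosts, against 5.49% of the 32851 starts in the table. A pyrimidine run was found in all 4 as well, against 44.9% of starts, and both features together in 2.64% of starts. The run crosses the annotated start in Snhg12, Gas5 and Snhg8, but in Snhg5 it begins some bases past the start. No start of Neat1 was available. Of the 2 hosts not analysed here, the start of Snhg1 has both features and that of Snhg3 a pyrimidine run alone. In Gas5 both features belong to 1 of its 2 annotated starts, at 161035166. Among 14 other noncoding hosts with an annotated start, 2 had both. The letters CACGTG, the E-box that MYC binds, were in none of the 300-base windows of the 5 RNAs (7.15% of all starts). The windows were set after these sequences were seen, and the shares are a description.

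The 6 libraries held 15140441 to 17566101 reads on listed genes. Sf3b3, the targeted gene, fell to 10.3, 9.56 and 13.9 FPKM (fragments per kilobase of exon, scaled to library size) in KD, against 22.6, 28.7 and 29.2 FPKM in PLKO (log2 fold change -1.26, SE 0.23, limma adjusted p = 0.037). The test was limma on the deposited log2 FPKM, adjusted by Benjamini-Hochberg over all tested genes and called under 0.05. It called 314 genes (2.92%), and 2080 (19.3%) with the library number as a block. With group alone, 2977 of the 10770 tested genes had an unadjusted p under 0.05. The 2 libraries numbered 3 stand apart from the others, and no gene was called by limma without KD 1, KD 2, PLKO 1 or PLKO 2 (1813, 1783, 2208 and 2321 genes at an unadjusted p under 0.05), so each call named here from the fit with group alone was lost without any 1 of these 4. The fold change of Sf3b3 stayed between -1.43 and -1.15 over the 6 fits that each left out 1 library. Calls with the block were not refitted without a library. Of the hepatocyte markers 6 of 17 were listed, without Alb, Ttr or Hnf4a, and their summed level was 86 to 119 FPKM in KD and 85.3 to 117 FPKM in PLKO. Of 7 biliary markers 4 were listed (140 to 257 FPKM in KD, 111 to 243 FPKM in PLKO) and of 7 endothelial markers 1, at most 0.316 FPKM in KD and 0.232 FPKM in PLKO. Of 11 fibroblast and stellate markers 6 were listed (53.1 to 76.5 FPKM in KD, 103 to 158 FPKM in PLKO). Of 12 leukocyte markers 3 were listed (48.5 to 104 FPKM in KD, 10.7 to 42.5 FPKM in PLKO), namely Cd68, Cd79a and S100a8, without Ptprc, and Cd79a and S100a8 were called higher. Most of this level was Cd68 (44.4 to 95 FPKM in KD, 9.19 to 42.1 FPKM in PLKO), which was not called (limma adjusted p = 0.075). The called genes had few reads in PLKO, with 4, 0 and 20 for Cd79a and 3, 1 and 4 for S100a8. The part of other cell types in the results on the hosts and nuclear RNAs was not tested. In bulk RNA, fewer cells of a type and less RNA per cell cannot be told apart.

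Among the 6 listed RNAs, 1 was called lower in KD (Snhg12), where 1.79% of all tested genes were called lower, and all 6 had a negative log2 fold change, as had 52.3% of all tested genes. Their median log2 fold change was -0.90, against -0.04 over all tested genes. The KD libraries all lay below the PLKO libraries for 3 of the 6 (Snhg12, Gas5 and Snhg8), as they did for 18.8% of tested genes. With the library number as a block, 2 of the 6 were called lower (Snhg12 and Malat1), where 11.1% of tested genes were. None of the 6 was called higher by limma with the group alone (1.12% of tested genes) or with the block (8.19%), and none had all KD libraries above the PLKO libraries (13.4%).

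**Figure D1:**
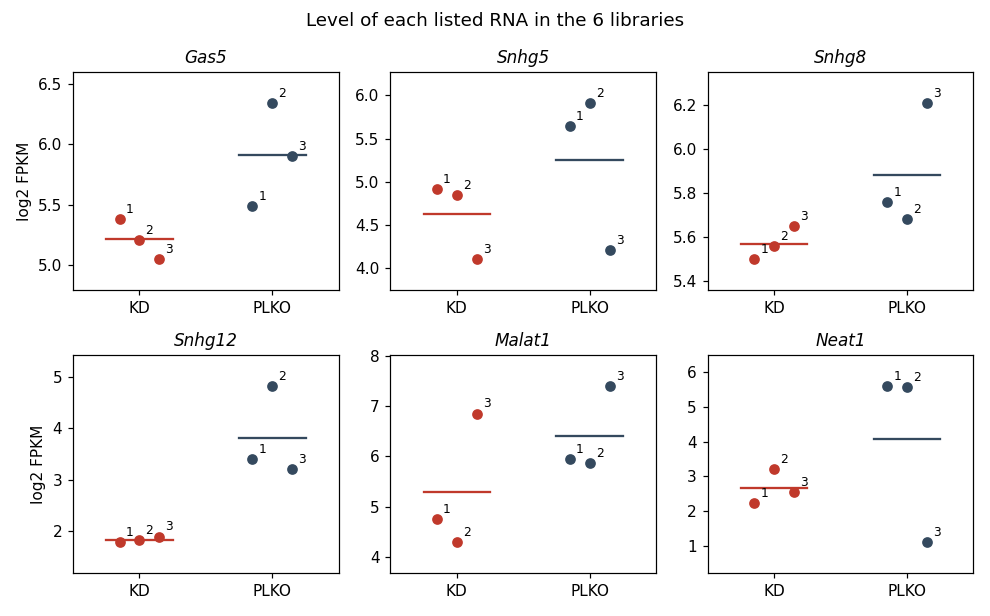
Log2 FPKM (vertical axis, a different range in each panel) of the 6 listed RNAs in the KD libraries (left, red) and the PLKO libraries (right, dark), with library numbers beside the points and bars at the group means. The 3 KD values of Snhg12 lie together below all PLKO values, Malat1 is highest in both libraries numbered 3, and Neat1 is lowest of all in PLKO 3.

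Snhg12, whose introns hold Snora16a, Snora44, Snora61 and Snord99, had 3.47, 3.55 and 3.73 FPKM in KD 1, 2 and 3, against 10.6, 28.3 and 9.31 FPKM in PLKO 1, 2 and 3. These values rest on 127, 133 and 155 reads in KD and on 460, 1136 and 352 reads in PLKO. The KD libraries agreed closely among themselves and the groups did not overlap, while PLKO 2 stood well above the other PLKO libraries. The mean was 3.58 ± 0.132 FPKM in KD and 16.1 ± 10.6 FPKM in PLKO (SD, n = 3 each). Snhg12 fell by 1.98 on the log2 scale (SE 0.39, 95% confidence interval -2.86 to -1.09, limma adjusted p = 0.043), the 32nd lowest fold change of the 10770 tested genes. With limma voom on recovered reads it was -1.99 and not called (adjusted p = 0.055). KD 1, 2 and 3 held 32.7%, 12.5% and 40% of the Snhg12 level of their like-numbered PLKO library. The log2 fold change was -1.47 without PLKO 2 (limma adjusted p = 0.12), and -1.96, -1.97 and -2.18 without KD 1, KD 2 and PLKO 1 (adjusted p = 0.17, 0.19 and 0.13). An exact permutation test (two-sided) gave p = 0.1, the minimum for groups of 3.

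Gas5, named for its rise in growth-arrested cells and a known target of nonsense-mediated decay, had 41.7, 37.1 and 33.0 FPKM in KD and 45.1, 81.0 and 59.9 FPKM in PLKO. The groups did not overlap, but KD 1 and PLKO 1 were close, so that Gas5 stood at 92.5% of PLKO 1 in KD 1, at 45.8% of PLKO 2 in KD 2 and at 55.1% of PLKO 3 in KD 3. Its reads numbered 2177 to 2423 in KD and 3069 to 5091 in PLKO. The mean was 37.3 ± 4.35 FPKM in KD and 62 ± 18 FPKM in PLKO (n = 3 each). Its log2 fold change of -0.70 (SE 0.25, interval -1.26 to -0.14) was not called (limma adjusted p = 0.11, and 0.059 with the block). Zbtb37 overlaps 428 bases of Gas5 on the opposite strand, and its level was 0.831 ± 0.255 FPKM in KD and 0.911 ± 0.365 FPKM in PLKO. Whether the authors' counting used strand is not given in the sources used here.

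Snhg5, the host of Snord50a and Snord50b, had 30.2, 28.9 and 17.2 FPKM in KD and 50.0, 60.3 and 18.5 FPKM in PLKO. The libraries numbered 3 were the lowest of each group and nearly alike, at 521 reads in KD 3 and 504 in PLKO 3, and the groups overlapped. The log2 fold change was -0.63 (SE 0.43, limma adjusted p = 0.37). Without PLKO 3 it was -1.15 (limma adjusted p = 0.0497), and without PLKO 2 it was -0.30 (adjusted p = 0.71). The fit without PLKO 3 called 802 of 10742 tested genes, against 314 with all libraries.

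Snhg8, the host of the H/ACA snoRNA Snora24, had 45.4, 47.2 and 50.1 FPKM in KD and 54.2, 51.4 and 74.2 FPKM in PLKO. The groups did not overlap, by the narrow margin between KD 3 and PLKO 2. Its log2 fold change of -0.32 (SE 0.21, interval -0.79 to 0.16) was the one nearest to 0 among the 6 and was not called (limma adjusted p = 0.35). Without PLKO 3 it was -0.15 (adjusted p = 0.67).

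Malat1, which gathers in speckles with splicing factors, had 27.2, 19.6 and 115 FPKM in KD and 61.6, 58.5 and 168 FPKM in PLKO. Its reads came to 2931, 2171 and 14092 in KD and to 7792, 6825 and 18546 in PLKO. Both libraries numbered 3 were far above the others of their group, and KD 3 exceeded PLKO 1 and PLKO 2, so the groups overlapped. The mean was 53.9 ± 53.0 FPKM in KD and 96.0 ± 62.2 FPKM in PLKO (n = 3 each), with a log2 fold change of -1.10 (SE 0.64, limma adjusted p = 0.29). Within each number the KD library was the lower one, with log2 differences, KD minus PLKO, of -1.18, -1.57 and -0.55 for numbers 1, 2 and 3. With the library number as a block the SE was 0.24 and Malat1 was called (limma adjusted p = 0.011). The pairing behind this fit comes from the libraries' profiles, since no label gives one. Without KD 3 the log2 fold change was -1.87 (adjusted p = 0.035), and without KD 2 it was -0.60 (adjusted p = 0.65). The fit without KD 3 called 1751 of 10736 tested genes, against 314 with all libraries, so a gained call there is not particular to Malat1.

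Neat1 had 4.68, 9.22 and 5.85 FPKM in KD and 48.3, 47.4 and 2.14 FPKM in PLKO. The KD libraries held 1501, 3032 and 2130 reads, against 18176 and 16446 in PLKO 1 and PLKO 2 and 703 in PLKO 3, the fewest of all. KD 1, 2 and 3 stood at 9.69%, 19.5% and 273% of the PLKO library of the same number, so the direction within number 3 was the opposite. The mean was 6.58 ± 2.36 FPKM in KD and 32.6 ± 26.4 FPKM in PLKO (n = 3 each). The log2 fold change of -1.43 (SE 1.03, interval -3.76 to 0.91) was not called (limma adjusted p = 0.39, and 0.12 with the block). It was -2.92 without PLKO 3 (limma adjusted p = 0.0067), -0.67 without PLKO 1 (adjusted p = 0.74) and -0.69 without PLKO 2 (adjusted p = 0.73). Its size and call thus depended on which PLKO libraries were kept. The fit without PLKO 3 called 802 of 10742 tested genes, against 314 with all libraries. PLKO 3 was the library with the highest Malat1 and the lowest Neat1 of all 6. Mitochondrial genes took 2.59%, 3.37% and 2.88% of reads in KD and 2.24%, 1.85% and 2.78% in PLKO. Their part in the results was not tested.

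By mean level of captured RNA, Malat1 stood first in both groups. It was followed in KD by Snhg8, Gas5, Snhg5, Neat1 and Snhg12 and in PLKO by Gas5, Snhg8, Snhg5, Neat1 and Snhg12. This order is per length, and the length is 20771 bases for Neat1, the longest of the 6. By reads the order differs: Neat1, Gas5 and Snhg5 had 18176, 3069 and 1564 in PLKO 1, and 703, 3565 and 504 in PLKO 3. How much of each length the captured RNA spans was not tested. In KD, Malat1 and Snhg8 overlapped and each later step in the order was free of overlap. In PLKO every neighbouring pair overlapped over its libraries. In KD, 28.1% of listed genes had a lower mean level than Snhg12, and 68.6% did in PLKO. For Gas5 these shares were 88% in KD and 93.3% in PLKO. PLKO 2 was the library with the highest value for 3 of the 4 listed hosts (Snhg12, Gas5 and Snhg5) and for 4 of 8 other tested noncoding hosts, against 27.3% of all tested genes.

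**Figure D2:**
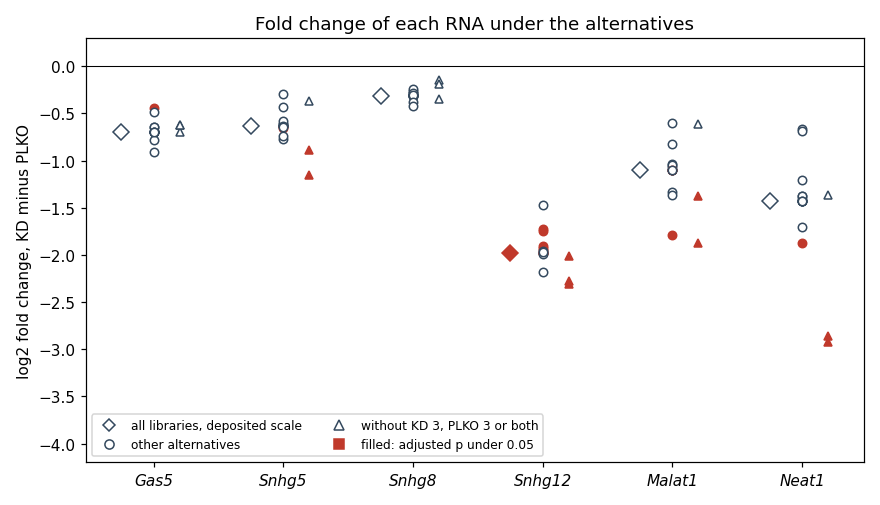
Log2 fold change, KD minus PLKO (vertical axis), of the 6 listed RNAs with all libraries on the deposited scale (diamonds) and under 16 alternatives (circles, and triangles for fits without KD 3, PLKO 3 or both); red filled symbols have a limma adjusted p under 0.05. All values are below 0, Snhg12 stays between -2.31 and -1.47, and Neat1 runs from -2.92 to -0.67.

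By the likeness of their profile over the 6 libraries, the genes closest to the mean of the 4 listed hosts were Dph3, an enzyme cofactor of diphthamide synthesis (Pearson r = 0.998), Tfpt, a subunit of the INO80 remodeller (r = 0.998), and Eif2b3, a subunit of the exchange factor of translation initiation factor eIF2 (r = 0.997). Their log2 fold changes were -0.71, -0.82 and -1.36. Limma gave them adjusted p-values of 0.094, 0.087 and 0.059, which the block took to 0.044, 0.027 and 0.0067. Closest to Malat1 were Zfp672, Mrpl48 and Tgs1 (r = 0.997, 0.989 and 0.989), and closest to Neat1 were Xrcc2, Epor and Dlgap5 (r = 0.990, 0.989 and 0.985). Such values over 6 libraries are a description. The search took tested genes outside these RNAs, without predicted (Gm or Rik) names, and the best among them are high by selection. Genes picked for likeness to hosts that were lower in KD are lower in KD by that choice. Their fold changes and p-values are therefore no separate result. Among the 6 RNAs themselves, Gas5 and Snhg12 (r = 0.91) and Snhg5 and Neat1 (r = 0.90) were most alike in log2 FPKM.

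Over all tested genes limma called 2.92% (19.3% with the block), and 2977 of 10770 were at an unadjusted p under 0.05. Of 17 other noncoding snoRNA hosts 9 were listed and 8 tested. None was called by limma (1 at an unadjusted p under 0.05, 0 called with the block or with voom on recovered reads), 5 had a lower and 3 a higher mean log2 value in KD, and their median was -0.16. Snhg15, the one with the lowest value, had 10.9, 7.66 and 8.56 FPKM in KD and 16.7, 46.6 and 9.06 FPKM in PLKO (log2 fold change -1.10, SE 0.51, limma adjusted p = 0.19). Snhg15 had -0.46 without PLKO 2, and -1.64 and called without PLKO 3 (adjusted p = 0.044). Zfas1, which carries box C/D snoRNAs, had 31.4, 30.3 and 24.8 FPKM in KD and 29.8, 102 and 32.0 FPKM in PLKO, so that PLKO 2 stood out (-0.68, adjusted p = 0.33, and -0.11 without PLKO 2). Snhg10 had 4.75, 3.93 and 1.63 FPKM in KD and 1.38, 1.47 and 1.90 FPKM in PLKO, on 11 to 37 reads (0.99, SE 0.42, adjusted p = 0.17). Epb41l4aos, Snhg6 and Snhg17 had log2 fold changes of -0.32, -0.30 and -0.03, and Dancr and Snhg20 had 0.38 and 0.46. The limma adjusted p of these 5 ran from 0.46 to 0.96. Snhg14 was listed at 0.358 ± 0.0742 FPKM in KD and 0.239 ± 0.128 FPKM in PLKO and was not tested. Without KD 3, Snhg10 (1.46, adjusted p = 0.023) and Snhg20 (0.93, adjusted p = 0.039) were called higher. Over all tested genes limma called 1751 without KD 3 and 802 without PLKO 3, against 314 with all libraries. A difference between Snhg12 and these hosts was not tested.

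**Figure D3:**
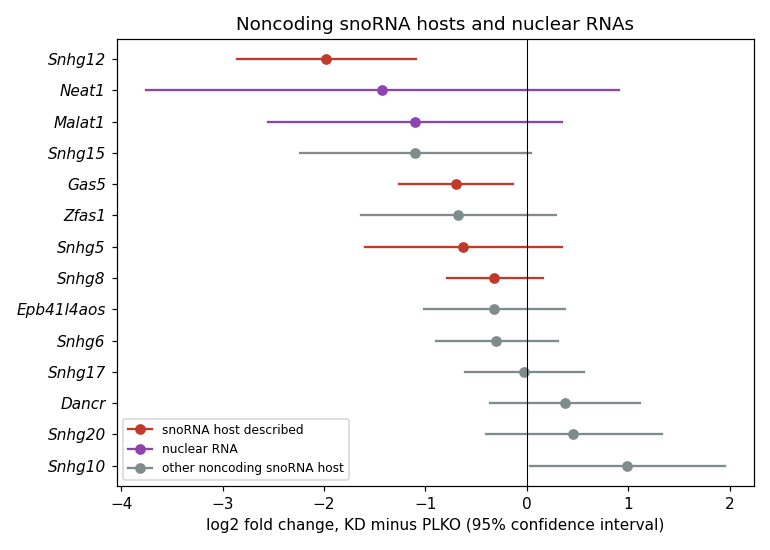
Log2 fold change, KD minus PLKO (horizontal axis), with the 95% confidence interval of limma, for the 4 listed snoRNA hosts, Malat1, Neat1 and 8 other noncoding snoRNA hosts. Snhg12 and Gas5 have intervals wholly below 0 and Snhg10 one wholly above 0 (0.03 to 1.95), all before adjustment, and the intervals of Neat1 and Malat1 are the widest shown.

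Taken from the annotation instead of by name, 10 other tested genes typed as noncoding held a snoRNA on the same strand. They are the 8 hosts tested above by name, with Cct6a and Rab26os added, so the sets are not independent. The median of the 10 was -0.16, and 6 had a lower mean log2 value in KD. None was called by limma, against 2.92% of all tested genes (1 lower with the block, against 11.1%). Cct6a, typed so in this annotation but known for coding a chaperonin subunit, was the 1 of the 10 whose groups did not overlap. Its KD libraries were the lower ones, as for 18.8% of all tested genes, and 13.4% had KD wholly higher. The level of Cct6a was 53.9 ± 5.25 FPKM in KD and 108 ± 49.1 FPKM in PLKO (-0.91, SE 0.30, adjusted p = 0.096, and 0.021 with the block).

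Most snoRNAs lie in introns of coding genes. Among 201 tested coding genes with an annotated snoRNA inside on the same strand, 4 were called lower and 1 higher by limma (2.49%, against 2.92% of all tested genes), with a median log2 fold change of -0.10. In a shorter list of 40 tested coding hosts 2 were called lower and 1 higher (7 and 3 with the block, against 11.1% and 8.19% of all tested genes), and the median was -0.11. They were Sf3b3 itself, Eif4g2, a translation factor (60.5 ± 7.85 FPKM in KD and 124 ± 26.1 FPKM in PLKO, -1.02, limma adjusted p = 0.0497), and Prpf39, a U1 splicing factor (15.7 ± 6.12 FPKM in KD and 4.68 ± 1.33 FPKM in PLKO, 1.70, adjusted p = 0.044). A list of genes known for a pyrimidine tract at the start, translation factors among them, had 0 of 20 called by limma (2 at an unadjusted p under 0.05, 0 with the block or voom). Of these 20 genes 10 were lower and 10 higher, with a median of 0.01. Eif3f, Eif3h and Npm1 had log2 fold changes of 0.53, 0.60 and -0.46 (adjusted p from 0.15 to 0.19).

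Against 2.92% of all tested genes called (19.3% with the block), and 2977 of 10770 at an unadjusted p under 0.05, calls among proteins that bind these RNAs were as follows. Of 19 tested snoRNP proteins and assembly factors 16 had a lower mean log2 value in KD (median -0.41), and 1 was called lower (3 with the block, 0 with voom). This was Pih1d1, a subunit of the R2TP assembly complex, at 11.9 ± 2.42 FPKM in KD and 23.0 ± 0.899 FPKM in PLKO (-0.97, SE 0.21, limma adjusted p = 0.0498). Naf1, an H/ACA assembly factor, had -0.87 (adjusted p = 0.062, and 0.019 with the block), and Ruvbl1, an ATPase of the same complex as Pih1d1, had 0.76 (adjusted p = 0.092). Of 22 paraspeckle proteins 2 were called lower and none higher by limma, against 1.79% of all tested genes called lower (4 and 0 with the block, against 11.1% lower), with a median of -0.09. Hnrnph3 fell to 6.31 ± 0.427 FPKM in KD, against 15.2 ± 3.47 FPKM in PLKO (-1.25, SE 0.23, adjusted p = 0.038), and Taf15 to 33.8 ± 2.76 FPKM in KD, against 70.5 ± 14.3 FPKM in PLKO (-1.04, SE 0.21, adjusted p = 0.044). No nuclear speckle protein of 20 was called by limma (3 at an unadjusted p under 0.05, 1 lower with the block, 0 with voom), with a median of 0.20. Son, Srsf2 and Rbm25 had 0.74, -0.73 and 0.53 (adjusted p from 0.10 to 0.18, and 0.033 for Srsf2 with the block).

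Among decay factors, 17 of the nonsense-mediated decay list were tested, with a median of -0.07 and 1 called lower by limma (3 lower and 2 higher with the block). Over all tested genes 1.79% were called lower, and 11.1% lower and 8.19% higher with the block. At an unadjusted p under 0.05 were 2977 of the 10770 tested genes. Upf3b, which links the exon junction complex to UPF1 and UPF2, had 3.87 ± 1.97 FPKM in KD and 11.5 ± 1.83 FPKM in PLKO (-1.68, SE 0.34, limma adjusted p = 0.044). Smg8, a subunit of the SMG1 kinase complex, and Casc3, an exon junction protein, had 1.05 and 0.76 (adjusted p = 0.062 and 0.074). With the block these were 0.01 and 0.037. None of 26 nuclear exosome and other decay factors was called by limma (7 at an unadjusted p under 0.05, 2 lower and 1 higher with the block, 1 with voom), with a median of -0.24. Dcp2, the decapping enzyme, had 1.04 (adjusted p = 0.051, and 0.013 with the block). Exosc5, an exosome subunit, had -0.92 (adjusted p = 0.082, and 0.025 with the block), and Dcp1a, a decapping cofactor, had 0.67 (adjusted p = 0.10). Of 22 coding mRNAs known as targets of nonsense-mediated decay none was called by limma (9 at an unadjusted p under 0.05, 3 lower and 5 higher with the block, 0 with voom), 12 had a lower and 10 a higher mean log2 value, and the median was -0.32. Ptbp2, Tra2b and Map3k14 had 1.11, -0.67 and 0.93 (adjusted p from 0.062 to 0.086, and 0.017 for Ptbp2 and 0.036 for Map3k14 with the block).

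Long noncoding RNAs as a class are known for diverse roles. Over all 117 tested genes annotated as long noncoding, the median log2 fold change was -0.02, 60 had a lower mean log2 value in KD, and 2 were called lower and none higher by limma (1.71% called). With the block 13 were called lower and 9 higher. Over all tested genes 2.92% were called, and 11.1% were called lower and 8.19% higher with the block. Of 8 tested RNAs from a list of well-known ones none was called by limma (1 at an unadjusted p under 0.05, 1 lower with the block, 0 with voom), with a median of -0.01. Mir22hg, the host of a microRNA, had -1.12 (limma adjusted p = 0.13, and 0.014 with the block), Pvt1, a neighbour of Myc, -0.87 (adjusted p = 0.29) and Firre -0.57 (adjusted p = 0.41).

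Within 100 kb, 24 tested genes other than the RNAs themselves were found, 12 of them lower and 12 higher in mean log2 value, and 1 was called by limma, against 2.92% of all tested genes. In a list of neighbours of all 8 RNAs 19 genes were tested, of which 11 had a lower mean log2 value and the same 1 was called (4 lower and 2 higher with the block, against 19.3% of all tested genes in either direction). It was Taf12, a subunit of TFIID and SAGA, 12857 bases from Snhg12 on the same strand, at 5.69 ± 0.614 FPKM in KD and 12.4 ± 2.43 FPKM in PLKO (-1.11, SE 0.23, limma adjusted p = 0.044). Trnau1ap, 739 bases beyond the other end of Snhg12 on the opposite strand, had -0.11 (adjusted p = 0.78). Rcc1, further along, had -0.62 (adjusted p = 0.14) and Phactr4 0.78 (adjusted p = 0.059, and 0.026 with the block). Cenpl, a centromere protein 32174 bases from Gas5, had 0.50 (adjusted p = 0.23), and other listed genes lie nearer to Gas5. Syncrip, an RNA-binding protein 38476 bases from Snhg5 and not the nearest listed gene, had -0.73 (adjusted p = 0.076, and 0.038 with the block). Between Neat1 and the next listed gene, Frmd8, lie 4224 bases, and Frmd8 had 14.7 ± 1.43 FPKM in KD and 14 ± 3.9 FPKM in PLKO (0.11, adjusted p = 0.80). Tigd3, 45660 bases from Neat1, had 1.79 (adjusted p = 0.072, and 0.013 with the block).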

How the data were processed

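Poly(A) RNA-seq of 3 KD and 3 PLKO libraries was used. The authors deposited 1 table of log2 FPKM, a scale read from the values (-7.85 to 13.17). The submitters' processing notes name FastQC 0.11.7 and the build GRCm38. For aligner, counter, strand use and gene filter the answer is: not given in the sources used here. A prior with a mean of 2.000 reads had been added before the logarithm, which understates fold changes of genes with few reads. With exonic lengths of GENCODE M21 (92.4% of genes) or a scanned length, all 11866 genes gave whole reads within 0.01 reads, and these are quoted as depth. Libraries had been scaled before deposit (reads over scaled size 0.938 to 1.04).

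The test was limma 3.58.1 (R 4.3.3) with its trend option, fitted to the deposited log2 values with group alone (4 residual degrees of freedom), for genes whose mean FPKM reached 1. FPKM are powers of 2 of the deposited values, fold changes are KD minus PLKO, and SD is over 3 libraries. The fit was checked on simulated data.

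Equal numbers were taken to pair libraries because deviations from the group means correlated at 0.18, 0.29 and 0.50 (limit 0.1). This comes from the data. KD 2 with PLKO 1 (0.27) and KD 1 with PLKO 2 (0.30) were as alike, so only the likeness of the libraries numbered 3 is clear.

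The RNAs and gene lists were chosen with earlier results of these data known. Named were all listed RNAs of the set, each listed noncoding host of a list by name, up to 3 tested genes per list with the lowest adjusted p and every one called, and the 3 genes with the highest Pearson r to each profile. Genes beside the RNAs were taken within 100 kb, a distance set later, and Trnau1ap, Rcc1, Cenpl, Syncrip, Frmd8 and Cct6a were named after their values were seen. A few genes that enter the counts are not reported here by name. The alternatives were other scales, filters, scalings, weights, a read model, the block and leaving out libraries.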

Additional observations from a re-analysis of the deposited data

How the results depend on the processing

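All 96 values of the 6 RNAs under 16 alternatives kept a negative sign. Calls matched those with all libraries on the deposited scale in 80, were gained in 11 and lost in 5. The cause of these changes was not tested, beyond the fewer libraries in some fits. Against 314 genes and 1 of the 6 RNAs called, limma called 2080 genes and 2 RNAs with the replicate block, 3000 and 4 without both libraries numbered 3, and 6030 and 5 with array weights. The array weight fit stopped before it converged and gave KD 2 a weight of 44.7 and the other libraries 0.214 to 1.94. With limma voom on recovered reads 308 genes and 0 RNAs were called (2988 genes at an unadjusted p under 0.05), Snhg12 at an adjusted p of 0.055. Leaving out 1 library at a time gave 0 to 1751 genes and 0 to 3 RNAs. The 5 lost calls are those of Snhg12 with voom and without KD 1, KD 2, PLKO 1 or PLKO 2 (adjusted p up to 0.19). Gas5 was called with array weights alone (0.021), Snhg5 in 3 alternatives, Malat1 in 4, Neat1 in 3 and Snhg8 in none. Other scales, filters and scalings between libraries changed no call of the 6. Depth limits Snhg12 most among the 6, at 127 reads in its lowest library, and 3 libraries a group limit all of them.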

Other observations

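A few snoRNA genes are themselves listed in this poly(A) table, none of them inside the 6 RNAs. Snord55, a box C/D snoRNA, was singled out after its values were seen. It had 128, 169 and 97 reads in KD and 9, 20 and 27 reads in PLKO, or 106, 137 and 71.5 FPKM in KD and 7.82, 16.7 and 23.1 FPKM in PLKO. Snord55 was called higher (log2 fold change 2.81, SE 0.40, limma adjusted p = 0.029). Whether its reads came from the snoRNA itself or from longer RNA that holds it was not tested. Snora31, Snora57, Snord104, Snora17 and Snord53 had -0.10, 0.37, 0.55, -0.31 and 0.56 on that scale, and none was called (adjusted p 0.42 to 0.88).

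Besides Snhg12, the other long noncoding RNA called was Mannr, also named after its values were seen. It had 1.84, 2.15 and 3.25 FPKM in KD and 8.65, 6.49 and 6.76 FPKM in PLKO, on 39 to 80 reads in KD and 152 to 223 reads in PLKO (log2 fold change -1.63, SE 0.29, limma adjusted p = 0.036). The groups did not overlap, and each KD library stood at 21.3% to 48.1% of the PLKO library of its number.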
